A study of Mus musculus with 4 samples.

Results

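The cells described here are aortic endothelial cells (EC) that carried the most Klf2 and Klf4 mRNA of their mouse. They were chosen by a rule on the measured counts: of 1536 wells on 4 plates, 166 held an eligible cell, and within each plate the 1 in 3 eligible cells with the highest share of unique molecular identifiers (UMIs) on Klf2 plus Klf4 were taken, which gave 54 cells, called KLF-high here. An eligible cell had at least 4000 UMIs outside mitochondrial and ERCC spike-in rows, at most 25% of its UMIs on mitochondrial genes, at least 1 Pecam1 UMI, no UMI of the fibroblast gene Dcn and fewer than 2 UMIs of the lipid-handling genes Cd36 and Fabp4 together. The 1 in 3 with the lowest share, again 54 cells and called KLF-low, are the comparison throughout, and the 58 cells in between, called KLF-mid, are given where they add to the picture.

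Aortas of 4 mice were digested, and CD31+ CD45- TO-PRO-3- cells were sorted singly into 384-well plates and sequenced from the 3′ end by SORT-seq, a protocol that tags each mRNA molecule with a well barcode and a UMI. All 4 mice carried Epas1fl/fl. Tamoxifen was given to all of them at an age of 6 weeks, and the aortas were taken after another 2 weeks. A pair of mice is labelled Epas1 EC-KO (Cdh5Cre/+, a tamoxifen-inducible Cre under the promoter of VE-cadherin, which acts in EC) and the other pair Epas1 EC-WT (littermates, Cdh5+/+, without Cre), and 1 plate was made from each mouse. Values below are listed in the order EC-KO mouse 1, EC-KO mouse 2, EC-WT mouse 1 and EC-WT mouse 2, and levels are in CPM, the UMIs of a gene as a share of all UMIs outside the spike-ins, on a scale where 10000 CPM is 1%. The mice are the replicates, and cells of a mouse are not.

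KLF2 and KLF4 are zinc finger transcription factors of the Krüppel-like family. In EC their genes are switched on by steady laminar shear stress through the MEKK3, MEK5 and ERK5 kinase cascade and MEF2 factors at their promoters, and they are known to raise antithrombotic and vasodilator genes such as Nos3 and Thbd and to lower the vasoconstrictor gene Edn1 and adhesion molecule genes. Their mRNAs are short-lived and also respond quickly to stress, including that of tissue digestion.

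Epas1, the gene deleted by design, encodes hypoxia-inducible factor 2α. In the Klf2- and Klf4-high cells its summed level was 3448.5, 3642, 3918 and 3003 CPM, so the EC-KO plates were not lower than the EC-WT plates. The 3′ end is counted, and a loss of internal exons need not remove it, so these counts do not check the labels, and groups are named here by the label alone. The study also assessed the deletion by quantitative PCR of endothelial RNA and by staining of EPAS1 protein, which are not analysed here. By the study's methods more EC-WT than EC-KO cells were left after quality control. On the deposited plates the cells with at least 4000 UMIs numbered 103, 75, 53 and 47, more in the plates labelled EC-KO, and comparisons by label rest on the labels as deposited. Epas1 was higher in KLF-high than in KLF-low cells in 4 of 4 mice, at 2013, 1975, 2724 and 2260 CPM in the KLF-low cells, but did not pass the test (log2 fold change 0.57 ± 0.18 (SE), adjusted *P* = 0.114, edgeR quasi-likelihood test). Without the smooth muscle-rich cells described below, the KLF-low cells of the EC-KO mice were at 2553 and 2548 CPM. The log2 fold change was then 0.415 ± 0.18 (adjusted *P* = 0.58, edgeR).

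Promoters of both ranking genes and of a pair of genes that rose and fell with them are printed to show the sequence context of the regulation outlined above. The sequences are those of RefSeq on GRCm38.p6, 5′ to 3′ on the strand of the gene, ending at the base before the annotated start. Capitals mark a MEF2-type palindrome, searched as CTA and TAG with any 4 bases between them, in Klf2 and Klf4, and the core of the CACCC box that KLF proteins bind, CACCC or GGGTG on the strand shown, in Calcrl and Edn1. Klf2 is shown for chr8:72318812-72319061 (+), Klf4 for chr4:55532476-55532725 (-), Calcrl for chr2:84425267-84425416 (-) and Edn1 for chr13:42301326-42301475 (+).
Klf2: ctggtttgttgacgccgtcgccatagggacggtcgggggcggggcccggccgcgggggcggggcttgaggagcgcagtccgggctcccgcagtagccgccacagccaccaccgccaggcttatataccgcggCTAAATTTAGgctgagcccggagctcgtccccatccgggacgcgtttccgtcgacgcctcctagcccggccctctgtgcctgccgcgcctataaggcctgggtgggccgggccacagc
Klf4: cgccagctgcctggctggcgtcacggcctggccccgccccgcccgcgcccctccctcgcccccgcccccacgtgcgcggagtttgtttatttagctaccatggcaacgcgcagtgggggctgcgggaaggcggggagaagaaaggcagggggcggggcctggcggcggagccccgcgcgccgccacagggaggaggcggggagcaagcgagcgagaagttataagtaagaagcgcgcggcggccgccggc
Calcrl: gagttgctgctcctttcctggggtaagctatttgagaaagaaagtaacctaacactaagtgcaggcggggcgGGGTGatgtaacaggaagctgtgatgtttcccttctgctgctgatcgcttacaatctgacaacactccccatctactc
Edn1: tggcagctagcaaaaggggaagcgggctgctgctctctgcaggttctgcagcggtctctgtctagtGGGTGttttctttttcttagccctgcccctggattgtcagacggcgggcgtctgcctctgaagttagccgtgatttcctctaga

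The palindrome occurred once in the 250 bases before the Klf2 start, as CTAAATTTAG from position -118, and not in those of Klf4. It was present in 3.7% of the 27025 genes in the promoter table. CACCC on either strand is frequent, in 54.5% of all genes and in 63.7% of the 2390 tested genes with an entry. Of the genes that were higher in the KLF-high cells without the smooth muscle-rich cells described below, 7 of 10 with an entry held it, and of those that were lower, 8 of 11. A match is a run of letters and not a shown binding site.

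Klf2 and Klf4 levels are the values that chose the cells and are given as a description, with no test. In the KLF-high cells Klf2 stood at 1474, 2740, 1539 and 1023 CPM, against 183, 531, 442 and 125 CPM in the KLF-low cells. Klf4 was at 1407, 1465, 922 and 1104 CPM in the KLF-high and at 136, 397, 339 and 277 CPM in the KLF-low cells. Every member held at least 1 Klf2 UMI and 3 Klf4 UMIs, with medians of 15 and 13 and highest values of 66 and 46, so that the ranking rests on few molecules per cell. Klf2 made up 51.2%, 65.2%, 62.6% and 48.1% of the summed Klf2 and Klf4 UMIs of the members.

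The ranking was made within each plate, and the plates were not at the same level. The median of both genes together over all eligible cells was 1161, 2344, 1454 and 689 CPM, so the highest and the lowest plate were an EC-KO and an EC-WT plate with the other pair between them. The lowest member and the highest non-member were at 1603 and 1598 CPM, 3153 and 3036 CPM, 1877 and 1859 CPM, and 1305 and 949 CPM. Only in EC-WT mouse 2 did a visible gap separate them. The KLF-low cells of EC-KO mouse 2 reached 1769 CPM, above the lowest members of EC-KO mouse 1 and EC-WT mouse 2, so "high" is relative to the plate. When each cell was thinned to 4000 UMIs before ranking, 47 of the 54 members remained in the upper 1 in 3.

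**Figure D1:**
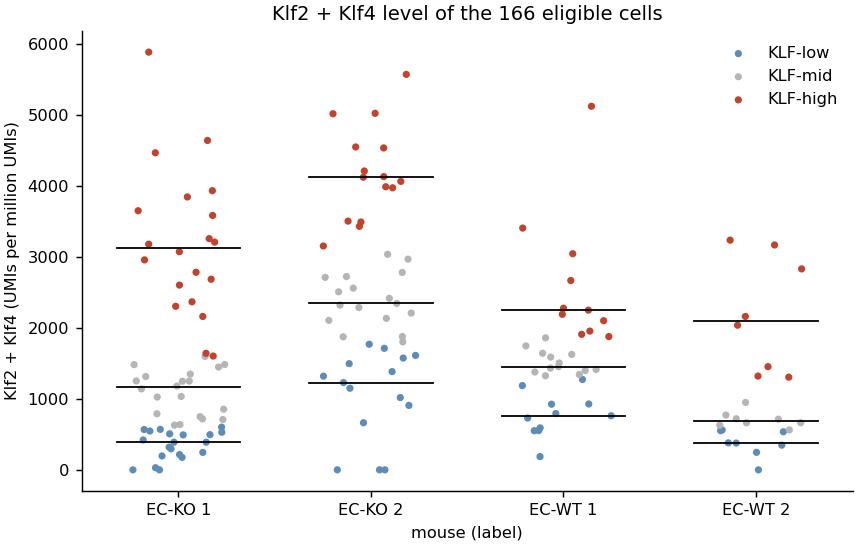
Summed Klf2 and Klf4 level of each eligible cell (CPM, vertical axis) by mouse (horizontal axis), coloured by group; black lines are the group medians. The levels form a continuum in 3 of the mice, and the median of the KLF-low cells of EC-KO mouse 2 (1229 CPM) lies above that of the KLF-mid cells of EC-WT mouse 2 (689 CPM).

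To show how far both factors were high in the same cells, the cells were also ranked by 1 gene alone. Both genes were proposed together because they led a cluster of these same cells in an earlier analysis, so the level of the second gene is a description of these cells, with no test. With cells ranked by Klf2 alone, Klf4 was at 1299, 1319.5, 698 and 777 CPM in the upper 1 in 3 and at 181, 594, 481 and 539 CPM in the lower 1 in 3, higher in 4 of 4 mice (log2 fold change 1.18). With cells ranked by Klf4 alone, Klf2 was at 1456, 2106, 1065 and 391 CPM in the upper 1 in 3 and at 308, 801, 613 and 437.5 CPM in the lower 1 in 3, higher in 3 of 4 mice and slightly lower in EC-WT mouse 2 (1.14).

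Both fold changes depended on single mice. Without EC-KO mouse 1 they were 0.66 for Klf4 and 0.78 for Klf2, and without the smooth muscle-rich cells described below 1.01 and 0.94. Across the eligible cells of a plate the Pearson correlation of both shares was 0.722 (60 cells), 0.398 (47), 0.382 (35) and 0.195 (24), as a description of cells that share a library and a denominator.

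**Figure D2:**
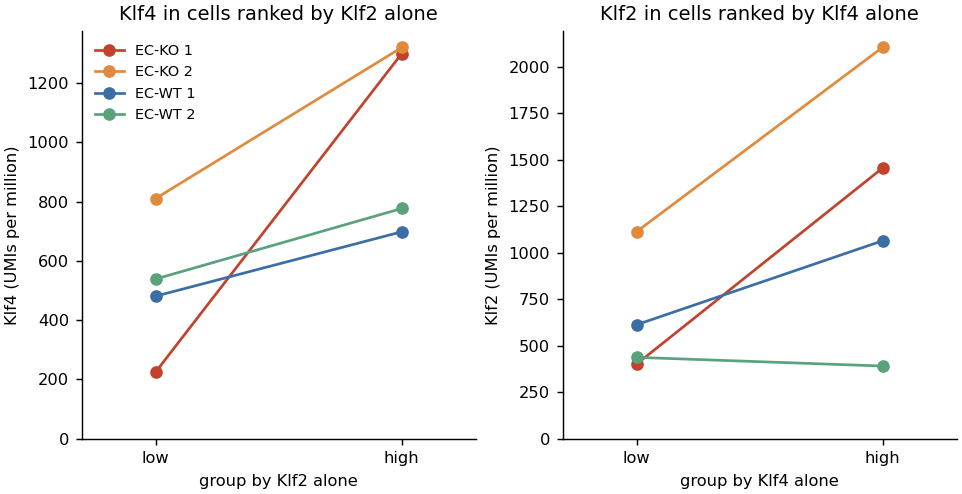
Level of the gene that was not used for ranking (CPM, vertical axis) in the lower and upper 1 in 3 of the cells (horizontal axis), 1 line per mouse, without the smooth muscle-rich cells; left, Klf4 in cells ranked by Klf2, right, Klf2 in cells ranked by Klf4. All 4 lines rise on the left, and on the right EC-WT mouse 2 goes from 437.5 to 391 CPM.

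The members carried an endothelial profile. The 22 endothelial genes fixed as markers, among them Pecam1, Cdh5, Tie1 and Vwf, summed to 7298 to 27666 CPM in each of the 54 cells, with a median of 18726 CPM. Pecam1 was required by the rule, and without it the sums were 6114 to 20643 CPM with a median of 13255 CPM. Smooth muscle genes summed to at most 1742 CPM in a member. Immune and erythroid or platelet markers summed to 0 to 26.2 CPM and to 0 CPM in the pooled members of a mouse, with Ptprc, Cd68 and Itga2b at 0 in each of the 4 mice. Lipid-handling genes summed to 19.6 to 114 CPM, where the rule limits Cd36 and Fabp4, and to 7.78 to 48.7 CPM without that pair. Fibroblast markers summed to 1306, 1864, 1337 and 1640 CPM in the members and to 4893, 2965, 761 and 2232 CPM in the KLF-low cells. Without the smooth muscle-rich cells described below the KLF-low sums were 1204, 1473, 761 and 2232 CPM, lower than in the members except in EC-WT mouse 2.

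The KLF-low cells were not as uniform. Among them, 6 cells, 3 from each EC-KO mouse and none from the EC-WT mice, had 37011 to 85228 CPM on the 12 smooth muscle genes, where no other eligible cell exceeded 6114 CPM, and 4 of the 6 had under 1000 CPM on the endothelial list. They passed the rule through 3 to 20 Pecam1 UMIs, and 3 of the 6 had no Klf2 and no Klf4 UMI. With these cells the smooth muscle list summed to 12593 and 21489 CPM in the KLF-low cells of the EC-KO mice and to 247 and 305 CPM in those of the EC-WT mice; without them the 4 values were 633, 776, 247 and 305 CPM. The comparisons below are given with all cells, as the rule has it, and without these 6 cells, a choice made after seeing the data that leaves 48 KLF-low cells.

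**Figure D3:**
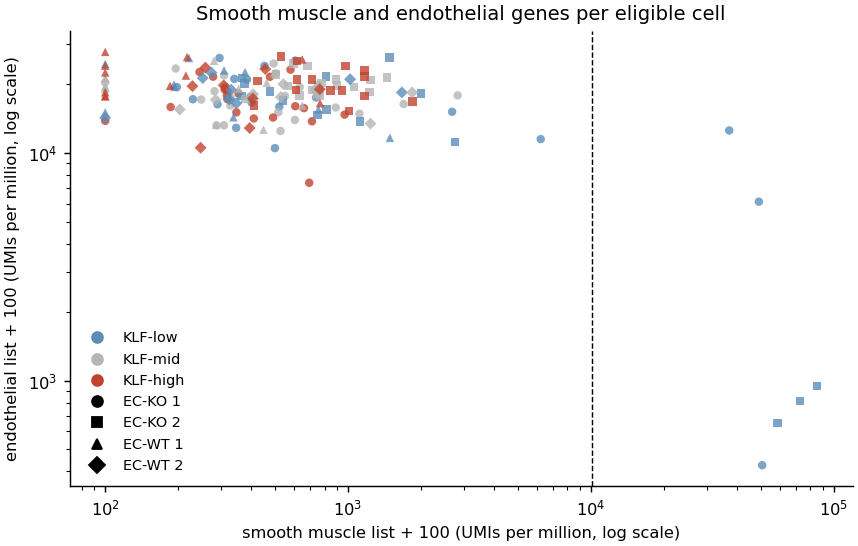
Summed smooth muscle list (horizontal axis) against summed endothelial list (vertical axis) of each eligible cell, both in CPM plus 100 on log scales, with colour for the group and symbol for the mouse; the dashed line marks 1% of UMIs. The 6 cells right of the line are KLF-low cells of the EC-KO mice, and all 54 members lie left of it.

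Some smooth muscle RNA was found in other cells as well, unevenly over the plates. Apart from the 6 cells, which held 97 to 1181 Acta2 UMIs, 77 of 160 eligible cells held 2 or more, 22 of 57, 41 of 44, 3 of 35 and 11 of 24 by mouse. Among the members these were 15 of 15 in EC-KO mouse 2, 8 of 20 in EC-KO mouse 1, 0 of 11 in EC-WT mouse 1 and 3 of 8 in EC-WT mouse 2. Members had median UMI counts of 9176, 9705, 9129 and 7294 and the KLF-low cells 7932, 11366, 9189 and 8504, a mean difference of -422 ± 1299 (SD, n = 4 mice; exact sign-flip permutation test, two-sided *P* = 0.5, where 0.125 is the smallest value 4 mice allow). At 4000 UMIs per cell the median number of genes detected was 31, 53, 86 and 123 higher in the KLF-high cells, in 4 of 4 mice (mean 73.3 ± 40.1 (SD), exact *P* = 0.125). Mitochondrial share was 3.97 percentage points higher in the KLF-high cells of EC-KO mouse 1 and 0.837, 1.19 and 2.62 points lower in the others (exact *P* = 1). All plates use the same 384 well barcodes by design, and 5 of the 49 well positions that hold members do so in 2 or more plates. The members of a mouse summed to between 61599 and 257211 UMIs.

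What else distinguished the cells was tested on UMIs summed per mouse and group, with the mouse as a block, in 1 fit across all genes. Of 3252 genes tested, 17 rose (0.523%) and 67 fell (2.06%) in the KLF-high cells at an adjusted *P* under 0.05 (edgeR quasi-likelihood test with Benjamini-Hochberg adjustment). Without the smooth muscle-rich cells, 11 of 3151 rose (0.349%) and 15 fell (0.476%). Shared by both fits were 22 genes, 9 that rose and 13 that fell. The counts with all cells were 1 up and 6 down without EC-KO mouse 2 and 11 up and 14 down without EC-KO mouse 1, and of the 22 shared genes 3 and 12 were then still called, with no change of direction among the 21 that could be tested in each case. Of the 84 genes called with all cells, 38 moved the same way in 4 of 4 mice and 66 had their mean level in the KLF-mid cells between those of KLF-high and KLF-low cells. Of the 26 genes called without those cells, 22 moved the same way in 4 of 4 mice and 24 had the KLF-mid level in between. Fewer genes were called with DESeq2, 2 up and 8 down with all cells and 2 up and 10 down without the 6, and with only EC-KO mouse 2 and EC-WT mouse 1, which were sequenced on the same flow cell, 0 up and 4 down or, without the 6 cells, 0 either way (142 of 2425 genes at an unadjusted *P* under 0.05).

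Among membrane receptors, Calcrl rose. It encodes the calcitonin receptor-like receptor, which together with RAMP proteins binds adrenomedullin and calcitonin gene-related peptide. Its level was 789, 916, 1042 and 860 CPM in the KLF-high cells and 251, 459, 308 and 721 CPM in the KLF-low cells, with all KLF-high values above all KLF-low values (1.08 ± 0.25, adjusted *P* = 0.0103; 0.94 ± 0.23, adjusted *P* = 0.0386 without the 6 cells, edgeR). It was not called with DESeq2 (1.07, adjusted *P* = 0.0989) or without EC-KO mouse 1 (0.90, adjusted *P* = 0.208), EC-KO mouse 2 (1.15, adjusted *P* = 0.11) or EC-WT mouse 1 (0.89, adjusted *P* = 0.058). Its partner gene Ramp2 was at 1322, 1942, 1733 and 1932 CPM in the KLF-high and 910, 1042, 976 and 1359 CPM in the KLF-low cells and did not pass (0.61, adjusted *P* = 0.102, and 0.43, adjusted *P* = 0.576 without the 6 cells, edgeR). The ligand gene Adm had no UMI in the members. Calcrl, Meg3 and Ncam1 had been proposed with Klf2 and Klf4 as markers from earlier clustering of these same cells, so their values are not independent support for the group.

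Of these proposed markers, Meg3, an imprinted long noncoding RNA, stood at 533, 817, 553 and 520 CPM in the KLF-high cells and at 261, 397, 411 and 319 CPM in the KLF-low cells. It was higher in 4 of 4 mice without passing the test (0.74 ± 0.23, adjusted *P* = 0.103; without the 6 cells 0.59, adjusted *P* = 0.41). Ncam1, a neural cell adhesion molecule, was at 241, 366, 286 and 179 CPM and at 350, 325, 134 and 166 CPM, with no difference detectable while the smooth muscle-rich cells were included (0.04 ± 0.29, adjusted *P* = 0.995), and 0.54 ± 0.28 (adjusted *P* = 0.726) without them. Neither marker therefore passed the test at this depth. Of the 8 genes that led a cluster with Klf2 and Klf4 in the earlier analysis of these cells, Arl4d, Pi16 and Calcrl were called higher in edgeR, beside 0.523% of all genes tested, and 0 with DESeq2. These genes were chosen for going with Klf2 and Klf4 in the same cells, so higher values follow in part from the choice, and those given below for Arl4d and Pi16 are not independent evidence either.

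With all cells Cdkn1a, which encodes the cyclin-dependent kinase inhibitor p21, showed the largest rise of the genes that moved alike in 4 of 4 mice. The KLF-high cells held 288, 471, 231 and 276 CPM and the KLF-low cells 26.1, 56.7, 113 and 0 CPM, with no overlap (2.67 ± 0.41, adjusted *P* = 0.000143; 2.53 ± 0.39, adjusted *P* = 0.000375 without the 6 cells, edgeR). No single cell gave more than 13.3% of its 188 UMIs in the members. Of 16 proliferation genes, 5 could be tested and Cdkn1a alone was called, beside 0.523% of all genes called higher. The other tested genes, Ccnd1 (0.99), Ccnd2 (0.30), Pcna (-0.53) and Cdkn1b (-0.16), were not called. The S phase and mitosis genes Top2a, Cdk1, Ccnb2 and Mcm5 had no UMI in either the KLF-high or the KLF-low cells. Mki67 had 5 UMIs in the KLF-high and 3 in the KLF-low cells, Ccnb1 1 and 0, Mcm2 3 and 1, and Mcm3 7 and 7. The replication genes Mcm6 and Tyms were too low to test, with 24 and 17 UMIs in the KLF-high and 24 and 20 in the KLF-low cells.

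Nr4a1, an orphan nuclear receptor induced within minutes by many stimuli, was at 144, 229, 92.2 and 244 CPM in the KLF-high cells and at 31.4, 56.7, 10.3 and 0 CPM in the KLF-low cells (2.45 ± 0.46, adjusted *P* = 0.0017; 3.37 ± 0.53, adjusted *P* = 0.000383, edgeR). Other rapidly induced genes moved in the same direction. With all cells Junb, a subunit of AP-1, rose (77.8, 490, 184 and 195 CPM against 57.5, 114, 82.2 and 13.9 CPM; 1.51 ± 0.38, adjusted *P* = 0.0216), as did Ier2 (1.45 ± 0.40, adjusted *P* = 0.0446) and Nfkbia, the inhibitor of NF-κB (400.4, 536, 516 and 617 CPM against 178, 155, 442 and 166 CPM; 1.13 ± 0.28, adjusted *P* = 0.0193). Without the smooth muscle-rich cells these 3 were still higher in 4 of 4 mice but were not called (Junb 1.34, adjusted *P* = 0.0794; Ier2 1.34, 0.102; Nfkbia 0.93, 0.0853), when the heat shock gene Hspa1b passed instead (1.35 ± 0.33, adjusted *P* = 0.0325).

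Of the 23 immediate early and stress genes tested, 4 rose, 0 fell and 21 had a positive log2 fold change, with a median of 0.95, beside 0.523% of all genes tested that rose and a median of 0.00. Without the 6 cells the figures were 2 of 22, 0, 20 and 0.88, beside 0.349% of all genes. DESeq2 called 1 gene of the list with all cells and 0 without the 6 cells, when edgeR had 11 at an unadjusted *P* under 0.05. The list, which lacks Klf2 and Klf4, summed to 5715, 8390, 6121 and 7175 CPM in the members and to 3827, 5044, 5334 and 3716 CPM in the KLF-low cells, and was higher in 4 of 4 mice. Klf2 and Klf4 are rapidly induced genes too, and the part of this response in the changes described here was not tested.

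Pi16, a peptidase inhibitor that is also among the fibroblast markers used here, was at 167, 314, 378 and 276 CPM in the KLF-high and 83.6, 46.4, 30.8 and 139 CPM in the KLF-low cells. Its log2 fold change was 1.85 ± 0.37 (adjusted *P* = 0.00407) and 1.70 ± 0.36 (adjusted *P* = 0.0126) without the 6 cells (edgeR). Vegfa, the endothelial growth factor gene and a target of hypoxia-inducible factors, was at 210, 418.5, 415 and 227 CPM against 57.5, 108, 144 and 180 CPM (1.41 ± 0.31, adjusted *P* = 0.00662; 1.26 ± 0.29, adjusted *P* = 0.0205). For both genes the lowest KLF-high value lay above the highest KLF-low value.

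Igf2, an imprinted growth factor gene, rose in 3 of 4 mice, with 867, 549, 433 and 276 CPM in the KLF-high and 188, 51.6, 493 and 0 CPM in the KLF-low cells (1.85 ± 0.42, adjusted *P* = 0.011; 1.59 ± 0.37, adjusted *P* = 0.0202). EC-WT mouse 1 went the other way, and 1 cell held 23.5% of the 371 UMIs in the members. Also higher in 4 of 4 mice were Syt7, a synaptotagmin that acts as a calcium sensor in membrane fusion (264, 294, 323 and 308 CPM against 105, 30.9, 164 and 97.1 CPM; 1.62 ± 0.33, adjusted *P* = 0.00476), Arl4d, a small GTPase of the ADP-ribosylation factor family (2.05 ± 0.39, adjusted *P* = 0.00194), and Adam15, a membrane disintegrin and metalloprotease (432, 654, 756 and 731 CPM against 230, 165, 360 and 361 CPM; 1.16 ± 0.25, adjusted *P* = 0.00571). Each also passed without the 6 cells, with adjusted *P* = 0.0126, 0.00923 and 0.0187.

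Fam43a, Prrt4, Neat1 and Kif26a were called higher with all cells and not without the 6 cells, though each was higher in 4 of 4 mice in both. Fam43a was at 148, 248.5, 138 and 114 CPM in the KLF-high and 52.3, 61.9, 51.4 and 69.3 CPM in the KLF-low cells (1.44 ± 0.37, adjusted *P* = 0.027; 1.29, adjusted *P* = 0.0962 without the 6 cells), and Prrt4 at 202, 177, 230.5 and 114 CPM against 83.6, 56.7, 113 and 41.6 CPM (1.24 ± 0.33, adjusted *P* = 0.0419; 1.04, adjusted *P* = 0.195). Neat1, the long noncoding RNA of paraspeckles (0.92 ± 0.21, adjusted *P* = 0.0123; 0.74, adjusted *P* = 0.0853), and Kif26a, of the kinesin family (1.17 ± 0.29, adjusted *P* = 0.0205; 1.00, adjusted *P* = 0.102), are named after their values were seen.

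Bmp4, a bone morphogenetic protein ligand that EC make at sites of disturbed flow, was the gene with the lowest *P* among those that fell in the fit without the smooth muscle-rich cells. It was at 1022.5, 699.7, 719 and 958 CPM in the KLF-high cells and at 1620.5, 2021.5, 2014.5 and 3078 CPM in the KLF-low cells, and the KLF-mid cells lay between in 4 of 4 mice with 1573, 1297, 972 and 2407 CPM (-1.41 ± 0.21, adjusted *P* = 7.43e-05; -1.55 ± 0.20, adjusted *P* = 2.15e-05 without the 6 cells, edgeR). Of 11 BMP and TGF-β pathway genes tested, Bmp4 alone was called, beside 2.06% of all genes called lower with all cells and 0.476% without the 6 cells. Its relative Bmp6 fell short (-1.47, adjusted *P* = 0.0853 without the 6 cells), and Id1, a target gene of the pathway, had a positive value that missed the threshold (1.06, adjusted *P* = 0.157).

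Edn1, which encodes the vasoconstrictor endothelin-1, was at 128, 32.7, 27.6 and 244 CPM in the KLF-high and at 230, 299, 360 and 305 CPM in the KLF-low cells, lower in 4 of 4 mice (-1.76 ± 0.39, adjusted *P* = 0.00781; -1.93 ± 0.37, adjusted *P* = 0.00486). The fall was large in EC-KO mouse 2 and EC-WT mouse 1 and smallest in EC-WT mouse 2. Nrp1, a co-receptor for VEGF and semaphorins, was called only without the 6 cells, at 645, 954.7, 544 and 373 CPM against 967, 2298.5, 709 and 1095 CPM (-0.98 ± 0.21, adjusted *P* = 0.0128; -0.81, adjusted *P* = 0.0515 with all cells). In the KLF-low cells 1 cell held 28.4% of its 610 UMIs.

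Igfbp4, an insulin-like growth factor binding protein, was at 233, 183, 249 and 211 CPM against 324, 402, 874 and 485 CPM (-1.21 ± 0.26, adjusted *P* = 0.00659; -1.35 ± 0.25, adjusted *P* = 0.00454). Frzb, a secreted Wnt antagonist, went from 120, 253, 134 and 402 CPM in the KLF-low cells to 54.4, 52.3, 101 and 64.9 CPM in the KLF-high cells (-1.64 ± 0.37, adjusted *P* = 0.00855). Both genes had no overlap between the groups.

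Apoe, the lipoprotein component apolipoprotein E, was at 1571, 1622, 959 and 1607 CPM in the KLF-high cells and at 1333, 3770, 1572.5 and 3923.5 CPM in the KLF-low cells. It was lower in 3 of 4 mice and slightly higher in EC-KO mouse 1 (-0.83 ± 0.22, adjusted *P* = 0.044; -0.97 ± 0.22, adjusted *P* = 0.0178), and 1 member held 24.3% of the 855 UMIs. Ephx2, the soluble epoxide hydrolase that degrades vasodilator lipid epoxides, was at 70, 71.9, 46.1 and 179 CPM against 167, 268, 319 and 166 CPM (-1.54 ± 0.36, adjusted *P* = 0.0126), and was lower in 3 of 4 mice. Gkn3, a gastrokine, was lower in 2 of 4 mice with all cells and in 3 of 4 without the 6, at 42.8, 131, 55.3 and 64.9 CPM against 455, 129, 421 and 55.5 CPM (-1.91 ± 0.46, adjusted *P* = 0.0163), and the difference came from EC-KO mouse 1 and EC-WT mouse 1.

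Lower in 4 of 4 mice, with and without the 6 cells, were also Gcnt1, a glycosyltransferase of O-glycan branching (-1.02 ± 0.27, adjusted *P* = 0.0419), the basic helix-loop-helix factor gene Tcf4 (-2.26 ± 0.48, adjusted *P* = 0.00571), the actin-binding calponin gene Cnn3 (-1.39 ± 0.30, adjusted *P* = 0.0071), 1500015O10Rik (-1.36 ± 0.35, adjusted *P* = 0.0278) and Epdr1 (-3.09 ± 0.63, adjusted *P* = 0.00459). Epdr1 rests on 9 UMIs in the members. Called only without the 6 cells were Nt5e, which encodes the ectonucleotidase CD73 and was lower (-1.01 ± 0.23, adjusted *P* = 0.0205), and Wdr92, which was higher (1.03 ± 0.22, adjusted *P* = 0.0126; 0.14, adjusted *P* = 0.954 with all cells) but had 601 and 1263.5 CPM in the KLF-low cells of the EC-KO mice with the 6 cells and 195 and 505 CPM without them. Genes named in this and the preceding paragraphs outside the naming rule, among them Frzb, Igfbp4 and Apoe, were chosen after their values were seen.

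**Figure D4:**
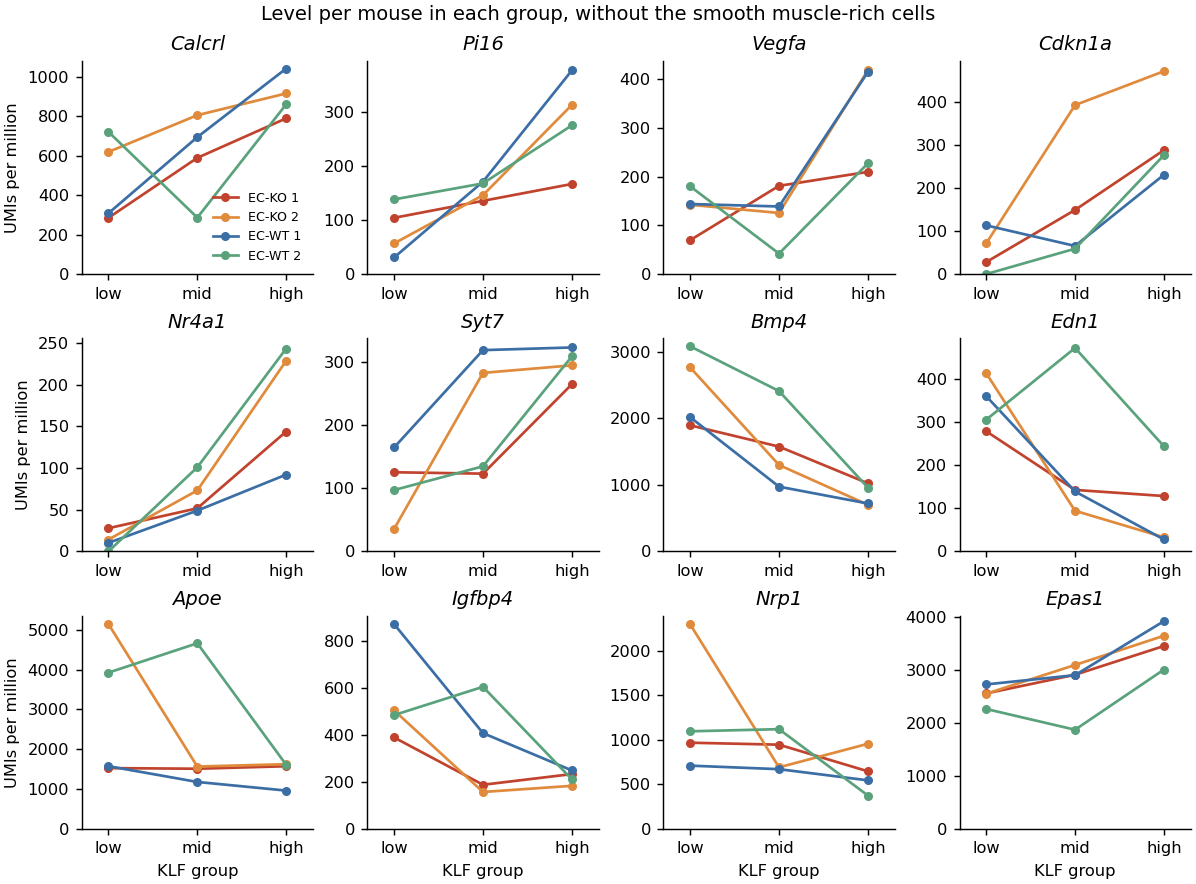
Level (CPM, vertical axis, from 0) of 12 genes in KLF-low, KLF-mid and KLF-high cells (horizontal axis), 1 line per mouse, without the smooth muscle-rich cells. Calcrl, Pi16, Vegfa, Cdkn1a, Nr4a1 and Syt7 end higher in the KLF-high cells, and Bmp4, Edn1, Igfbp4 and Nrp1 lower, in 4 of 4 mice; Apoe is at 1524 and 1571 CPM at either end in EC-KO mouse 1, and Epas1 did not pass the test.

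Known KLF target genes were followed as lists. Of 15 tested genes known to be induced by KLF2 or KLF4, 1, Pi16, was called higher and 0 lower, beside 0.523% and 2.06% of all genes tested, and 12 had positive values with a median of 0.37. Pi16 is also 1 of the genes taken from the earlier clustering of these cells, so the list holds no called gene that was chosen independently. Nos3, endothelial nitric oxide synthase, was at 673, 752, 913 and 860 CPM in the KLF-high and 408, 438, 627 and 555 CPM in the KLF-low cells, with no overlap, but did not pass (0.59, adjusted *P* = 0.196; 0.40, adjusted *P* = 0.712 without the 6 cells). Thbd, thrombomodulin (0.63, adjusted *P* = 0.218), S1pr1, the sphingosine 1-phosphate receptor (0.68, adjusted *P* = 0.218), and Slc9a3r2 (0.73, adjusted *P* = 0.0775) did not pass either. Of 9 tested genes known to be repressed, 3 fell (2.06% of all genes tested did), Bmp4, Edn1 and Ctgf, the last through the smooth muscle-rich cells only (157 UMIs in the KLF-low cells against 12 in the KLF-high cells, and too few to test without them). The list's median was -0.66, or -0.50 over 8 genes without the 6 cells, when 2 fell, beside 0.476% of all genes. Thbs1, thrombospondin 1, did not pass with all cells (-2.07, adjusted *P* = 0.12) or without the 6 cells (-2.32, adjusted *P* = 0.0794), and the adhesion molecule gene Vcam1 had a positive value that did not pass in either (0.61, adjusted *P* = 0.274, and 0.44, adjusted *P* = 0.738).

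Few genes of the other lists were called, and with 0.523% of all genes tested called higher and 2.06% lower, 0 calls in a short list is no result about that list. Of 20 genes for flow sensing and the MEKK3, ERK5 and MEF2 cascade, 10 could be tested, and edgeR and DESeq2 called 0 of them, with 0 at an unadjusted *P* under 0.05 in edgeR and a median of 0.01; Map3k3, Map2k5, Mapk7, Mef2a and Mef2d were too low to test, at 30, 10, 15, 15 and 1 UMIs in the members. Among the other Klf genes 0 of 6 tested were called (2 at an unadjusted *P* under 0.05 in edgeR), and 6 of 6 had positive values without the smooth muscle-rich cells, where Klf7 was at 1.06 (adjusted *P* = 0.199) and Klf10 at 0.87 (adjusted *P* = 0.536). Of 19 arterial and Notch genes tested 0 were called with all cells (2 at an unadjusted *P* under 0.05) and 1, Nrp1, fell without the 6 cells. With all cells 0 of 17 endothelial genes tested were called (3 unadjusted), 0 of 14 junction and adhesion genes (2 unadjusted) and 0 of 7 antioxidant genes of the NRF2 pathway (0 unadjusted), by edgeR and by DESeq2. In the HIF pathway list Vegfa rose and the 3 other genes tested, Epas1, Hif1a (-0.03, adjusted *P* = 0.998) and Egln1, the oxygen sensor PHD2 (-0.55, adjusted *P* = 0.81), did not pass. Without the 6 cells Hif1a (0.525, adjusted *P* = 0.893) and Egln1 (-0.64, adjusted *P* = 0.866) did not pass either (edgeR).

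**Figure D5:**
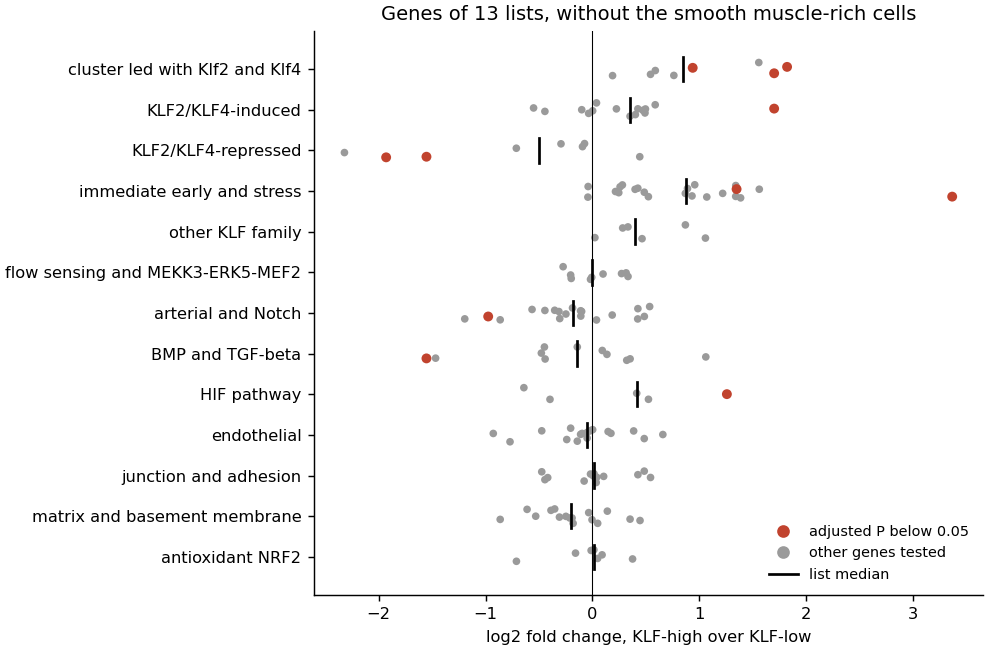
Log2 fold change of KLF-high over KLF-low cells (horizontal axis) for each tested gene of 13 lists (vertical axis) without the smooth muscle-rich cells; red points have an adjusted P below 0.05 and black bars are list medians. Medians are 0.88 for immediate early and stress genes, -0.50 for genes repressed by KLF2 or KLF4 and -0.05 for endothelial genes.

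Falls that came with the smooth muscle-rich cells were large. All 11 tested genes of the smooth muscle list fell with all cells, beside 2.06% of all genes tested. Examples are Myl9, a myosin light chain (-6.76 ± 0.55, adjusted *P* = 5.36e-08), Tagln (-5.17 ± 0.48, adjusted *P* = 9.76e-08) and Myh11 (-4.62 ± 0.49, adjusted *P* = 9.18e-07, edgeR). Without the 6 cells 2 of the list could be tested, and edgeR and DESeq2 called 0 of them, with 0 at an unadjusted *P* under 0.05. The same held for the collagen gene Col3a1 (-3.37, adjusted *P* = 3.59e-05, and -0.79, adjusted *P* = 0.733), for the cytoskeletal genes Tpm1 and Flna (-0.15 and -0.19 without the 6 cells), and for Map1b and Lpp (-0.77, adjusted *P* = 0.867, and -0.46, adjusted *P* = 0.866). Myh10, a nonmuscle myosin heavy chain gene, lost the call but was lower in 4 of 4 mice without those cells too (-2.22, adjusted *P* = 0.000112, and -1.33, adjusted *P* = 0.124). Ltbp1, Npnt, Sost, Smtn and Lmo4, which with Map1b, Myh10 and Lpp are among the 10 largest falls in 4 of 4 mice, had too few UMIs to test without those cells. Of these, Lmo4 stood at 15.6, 13.1, 0 and 64.9 CPM in the KLF-high cells and at 62.6, 71.2, 71.95 and 180 CPM in the KLF-low cells without the 6 cells, lower in 4 of 4 mice. In all, 54 of the 67 falls were called only with those cells.

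By label, no gene could be told apart in the members. In the KLF-high cells 0 of 2589 genes (0%) were called between EC-KO and EC-WT by edgeR with 2 mice a group, 148 had an unadjusted *P* under 0.05, and DESeq2 called 0 (32 at an unadjusted *P* under 0.05). The lowest *P* values belonged to Klk1, a kallikrein (0, 26.2, 249 and 130 CPM; -4.09, adjusted *P* = 0.761), the mitochondrial ribosomal RNA mt-Rnr1 (7546, 6042, 3706 and 3312 CPM; 1.03, adjusted *P* = 0.761) and Fgl2, a fibrinogen-like protein (163, 150.4, 9.22 and 48.7 CPM; 2.74, adjusted *P* = 0.761). With all cells Klk1 was also higher in KLF-high than in KLF-low cells (4.54 ± 1.15, adjusted *P* = 0.0267, edgeR). Without the 6 cells it was not called (4.49, adjusted *P* = 0.0794, edgeR). It was higher in 3 of 4 mice, with none detected in EC-KO mouse 1 in either group. Klk1 rests on 39 UMIs in the members, of which 1 cell held 66.7%. For Fgl2, 1 member held 47.8% of 69 UMIs. In the KLF-low cells 37 of 2782 genes (1.33%) were called, and 0 of 2169 without the 6 smooth muscle-rich cells (74 at an unadjusted *P* under 0.05). Whether the difference between KLF-high and KLF-low cells itself depended on the label was tested as an interaction: edgeR called 0 of 3252 genes (0%), with 186 at an unadjusted *P* under 0.05, and DESeq2 called 4, the smooth muscle genes Acta2 and Tagln, Flna and Igfbp7. In the KLF-low cells of the EC-KO mice Tagln was at 2588 and 4022 CPM with the 6 cells and at 174 and 71.2 CPM without them. Without the 6 cells edgeR called 0 of 3151 genes for the interaction (129 at an unadjusted *P* under 0.05), and DESeq2 was not run. EC-KO mouse 2 and EC-WT mouse 1 shared a flow cell and the other mice had one each, so with 2 mice a group the spread over mice includes that of sequencing runs.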

How the data were processed

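The deposited tables hold, for each plate, UMI counts, read counts and expected transcript counts of genes by wells. Per the labels the authors sorted single cells, made SORT-seq libraries and counted UMIs, and the submitters' processing notes name BWA 0.7.15, Seurat and GRCm38 (mm10). The authors deposited counts that are not normalized, and the deposited expected counts equal the UMI counts corrected for 4096 possible identifiers to within 1e-09. UMI counts were used here, expected counts (rounded) as an alternative. Plates held 675931 to 1211118 UMIs outside spike-ins, and 2 mice a label limit the precision.

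UMIs were summed per mouse and group and tested with edgeR 4.0.16 in R 4.3.3 (TMM, filterByExpr, quasi-likelihood, mouse as block, adjusted *P* under 0.05); DESeq2 1.42.0 was an alternative. The SE is the absolute log2 fold change divided by the square root of F. Klf2, Klf4 (ranking), Pecam1, Dcn, Cd36 and Fabp4 (filter) were left out of the test. Scripts used Python 3.11.15, and the fit was tested on simulated data. KLF-high and KLF-low sums pair through the mouse: their deviations from the means of the groups correlated by 0.066, 0.136, 0.122 and 0.112 over 1049 genes. Replicate numbers do not pair labels. No doublet caller was run; cells over 3 times the median UMIs were left out as an alternative.

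Members and lists were chosen with earlier results of these data known. Named were the 5 proposed markers, the HIF pathway list, the 10 largest rises and falls among called genes that moved alike in 4 mice, up to 6 called genes of each list or otherwise its 3 highest, and the 3 lowest *P* values by label; some genes are not reported here. Each plate is 1 mouse, and *P* values cover the spread between these mice.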

Additional observations from a re-analysis of the deposited data

Results flagged for a closer look

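In 48 called genes the difference between the groups was compared over the 4 mice, as log2 of the CPM plus 50 in KLF-high over that in KLF-low cells. For Nr4a1 with all cells, EC-WT mouse 2 stood far from the others at 2.55. The values were 1.25, 1.39 and 1.24 in EC-KO mouse 1, EC-KO mouse 2 and EC-WT mouse 1. All 4 mice moved the same way. Chance sets 1 mouse apart to this degree in about 1 of 20 groups. Without the smooth muscle-rich cells EC-KO mouse 1, EC-KO mouse 2 and EC-WT mouse 1 were at 1.32, 2.12 and 1.24. EC-WT mouse 2, still at 2.55, then no longer stood far from EC-KO mouse 2. Its KLF-low cells held 0 CPM of Nr4a1, so the 2.55 depends on the 50 CPM added.

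Myh11 and Flna, both smooth muscle-associated, fell in the EC-KO mice and did not fall in the EC-WT mice. On the same scale Myh11 was at -3.79, -4.30, 0.45 and 0.05 and Flna at -1.82, -2.74, 0.22 and 0.31, and the EC-KO minus the EC-WT mean was -4.30 for Myh11 and -2.54 for Flna. In the EC-WT mice Myh11 was very low, at 18.4 and 16.2 CPM in the KLF-high and 0 and 13.9 CPM in the KLF-low cells. These levels show no direction. The interaction of group and label did not pass in edgeR (adjusted *P* = 0.238 and 0.087). Without the 6 smooth muscle-rich cells, all of them in the EC-KO plates, the values per mouse were 0.45, 0.21, 0.45 and 0.05 for Myh11 and -0.37, -0.46, 0.22 and 0.31 for Flna.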

How the results depend on the processing

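The 22 genes called with and without the smooth muscle-rich cells kept their direction in every alternative in which they could be tested, but the number called moved. Of them 22 were called with a minimum of 2000 UMIs, 20 between the outer 1 in 4, 13 without the replicate block, 3 with DESeq2, 3 without EC-KO mouse 2 and 1 in the flow cell pair. Bmp4 passed in 27 of 29 alternatives, Cdkn1a in 26 of 29 and Nr4a1 in 22 of 27, and others of the 22 less often: Arl4d in 20 of 28, Pi16 and Edn1 in 19 of 29, Igfbp4 and Syt7 in 18, Adam15 in 17, Calcrl, Vegfa, Ephx2 and Gkn3 in 16, Igf2 and Cnn3 in 14, Apoe and 1500015O10Rik in 12 and Gcnt1 in 9 of 29, Epdr1 in 15 of 22, Frzb in 14 of 28 and Tcf4 in 14 of 25. Of the genes called only without the 6 cells, Nrp1 passed in 8, Nt5e in 6, Wdr92 in 3 and Hspa1b in 1 of 29.

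With all cells, 17 genes higher and 67 lower became 2 and 8 with DESeq2, 7 and 21 at a mean of 20 UMIs or more per sum, 33 higher at a minimum of 2000 UMIs, 9 higher at 6000, 38 higher between the outer 1 in 4, 40 lower between the upper and lower 50%, 29 lower with cells thinned to 4000 UMIs, 105 lower without a filter, 31 lower without cells over 3 times the median UMIs, 0 and 4 in the flow cell pair, and 8 and 14 without the replicate block (the mouse). Leaving out 1 mouse gave 1 to 23 higher, the fewest without EC-KO mouse 2 and 11 without EC-KO mouse 1, and 6 to 91 lower, with 6 without EC-KO mouse 2 and 14 without EC-KO mouse 1. Dropping cells with 2 or more Acta2 UMIs gave 0 and 3, and removes all 15 members of EC-KO mouse 2. Without the 6 smooth muscle-rich cells the counts were 11 and 15 (16 lower when they were removed before ranking), 2 and 10 with DESeq2, 6 and 9 without the replicate block, 0 and 0 in the flow cell pair, and 3 to 6 higher and 5 to 10 lower with 1 mouse left out. Other settings stayed within 1.5 times.

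By label in the KLF-high cells, 0 genes became 1 at a minimum of 6000 UMIs, 5 without a filter, 1 and 2 ranked by Klf2 or Klf4 alone, 1 in the upper 50%, 1 without cells with 2 or more Acta2 UMIs, 2 with the replicate number as a block (replicate block; the labels share only a number, with a correlation of -0.0568 of same-numbered mice) and 4 to 10 with 1 mouse left out, where the lone mouse is assumed to vary like the others. In the KLF-low cells 37 became 0 without the 6 cells. The interaction, 0, became 4 with DESeq2, 3 at a mean of 20 UMIs or more, 1 and 5 at minima of 2000 and 6000 UMIs, 6 without a filter, 4 and 10 ranked by Klf2 or Klf4 alone, 2 and 12 between the outer 50% and the outer 1 in 4, and 2 to 11 with 1 mouse left out.

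The fold change of Klf4 in cells ranked by Klf2, a description, was 1.16 with DESeq2, 1.15 without the replicate block, 1.01 without the 6 cells and 0.66 to 1.43 with 1 mouse left out. That of Klf2 in cells ranked by Klf4 was 1.09 with DESeq2, 1.20 without the replicate block and 0.78 to 1.45 with 1 mouse left out. Of the genes called with all cells, reversed were Lpp (0.24), Col3a1 (0.61) and Tpm1 (0.26) without cells with 2 or more Acta2 UMIs, and Tpm1 (0.19) without the 6 cells and 1 mouse. Leaving out 1 mouse gave -1.83 to -0.67 for Tpm1 with all cells and -0.61 to 0.19 without the 6 cells. Wdr92, called only without the 6 cells, was 0.14 with all cells and between -0.31 and 0.49 under the alternatives to that fit that were not made to remove these cells, and the uncalled Ncam1 and Hif1a took both signs. Except where fewer cells or mice were used, the cause was not tested. Low counts, 8 to 20 members a mouse, limit what could be detected.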
